A study of Homo sapiens with 12 samples.

Results

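The subject is a group of 37 genes that act at the G1/S transition and in DNA replication, measured in 4 related lines of HER2-positive breast cancer cells. The group is defined by gene names and not by a measured difference, but it was chosen with earlier results of these data known. Each gene is represented by 1 probe set, the one that maps to that gene alone and has the highest mean over all 12 arrays. All 37 were measured, out of 19775 genes with such a probe set.

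DNA is copied once per cell cycle in an ordered sequence. In G1, the origin recognition complex with CDC6 and CDT1 loads the MCM2-7 helicase onto DNA, which licenses an origin; CDC45, the GINS complex and MCM10 then turn the helicase on, and the sliding clamp PCNA, its RFC loader and the DNA polymerases carry out synthesis. Many of these genes are transcribed under E2F factors, which are released from the RB protein once cyclin D and cyclin E kinases are active. HER2 signalling feeds into that switch, and HER2 inhibitors are known to hold sensitive breast cancer cells in G1.

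SKR6 is a population with high HER2 that was sorted from SKBR-3, an established HER2-amplified breast carcinoma line. SKR6-Vector is SKR6 transduced with the empty retroviral vector pQCXIP, and SKR6CA is SKR6 transduced with a constitutively active form of the NF-κB subunit relA/p65 (CAp65). Both transduced lines were selected with puromycin. SKR6LR is SKR6 that was exposed for several months to lapatinib, which blocks the kinase activity of HER2 and EGFR, at concentrations raised from 0.2 to 5 µM. All lines were grown in the same serum-containing medium for 48 hours before RNA was taken. The growth protocol states that cells named SKLR, a name that is not quite SKR6LR, were kept in 0.2 µM lapatinib, so the drug may have been present in the SKR6LR cultures. Each line has 3 arrays that the labels call biological replicates. Whether a line is 1 population or several derivations is not given, so p-values measure only the spread among these arrays.

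On every array, the values are deposited log2 expression values. A difference of 1 is a doubling, and a gene is called higher or lower when its adjusted p is under 0.05 in 1 limma model of all 12 arrays, with Benjamini-Hochberg adjustment over all 19775 genes. In these bulk cultures, fewer cells in S phase and less RNA per cell cannot be told apart.

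The lines kept an epithelial HER2-positive profile, with 7 of 8 luminal and HER2 markers above the median gene in each line; the exception was CDH1, which SKBR-3 is known to lack. The summed level of those 8 genes was 97.1 to 98.6 in the 3 lines other than SKR6LR and 93.5 to 95.5 in SKR6LR, where ERBB2 was lower by a log2 difference of -1.38 (SE 0.0566, limma adjusted p = 4.28e-10). Of the markers of other cell types, 1 or 2 of 8 fibroblast genes, none of 6 blood cell genes and 1 or 2 of 6 endothelial genes lay above the median gene in a line. The summed level of the fibroblast genes was 46.5 to 47.6 in SKR6LR and 41.4 to 42.6 elsewhere, with COL3A1 at 9.49 in SKR6LR. That of the blood cell genes was 31.2 to 31.5 against 28.8 to 29.7, and that of the endothelial genes 37.5 to 38.0 against 34.1 to 37.5. Few genes carried these sums. Against SKR6, the median fibroblast, blood cell and endothelial gene in SKR6LR differed by -0.02, 0.09 and 0.03. The largest differences were 4.92, 1.72 and 3.83, and 5 of 8, 1 of 6 and 3 of 6 genes lay below SKR6. The SKR6LR arrays also differed more from each other, with a replicate SD of 0.209 over all genes against 0.0958 to 0.107 in the other lines. The 3′ probe set of the actin control exceeded its 5′ probe set, a gap that widens as RNA degrades, by 1.19, 1.03 and 2.32 on SKR6LR replicates 1, 2 and 3 and 1.19 to 1.73 on the other 9 arrays. For the GAPDH control the gap was 0.159, 0.229 and 0.513 on the SKR6LR arrays and 0.123 to 0.193 on the others. The part of these values in the results was not tested.

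Replication genes stood highest in the sorted parent, lower in both transduced lines and lowest in the lapatinib-selected line. The SKR6 mean was the highest of the 4 lines for 35 of 37 members, the exceptions being POLD1 and TK1, against 27.7% of all genes tested. The SKR6LR mean was the lowest for 28 of 37, against 44.9% of all genes. The 9 exceptions were ORC6, MCM2, MCM3, MCM4, MCM5, MCM7, MCM10, POLD1 and CCNE1.

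The median member stood, relative to its SKR6 mean, at -0.52, -0.48 and -0.44 on the 3 SKR6-Vector arrays. On the SKR6CA arrays it stood at -0.44, -0.45 and -0.49. On the SKR6LR arrays it stood at -0.73, -1.50 and -0.98. The transduced lines thus lay at similar levels with little spread, while the lapatinib-selected arrays were lower and far apart. The median of all genes tested stayed between -0.07 and 0.00 on the same arrays.

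**Figure D1:**
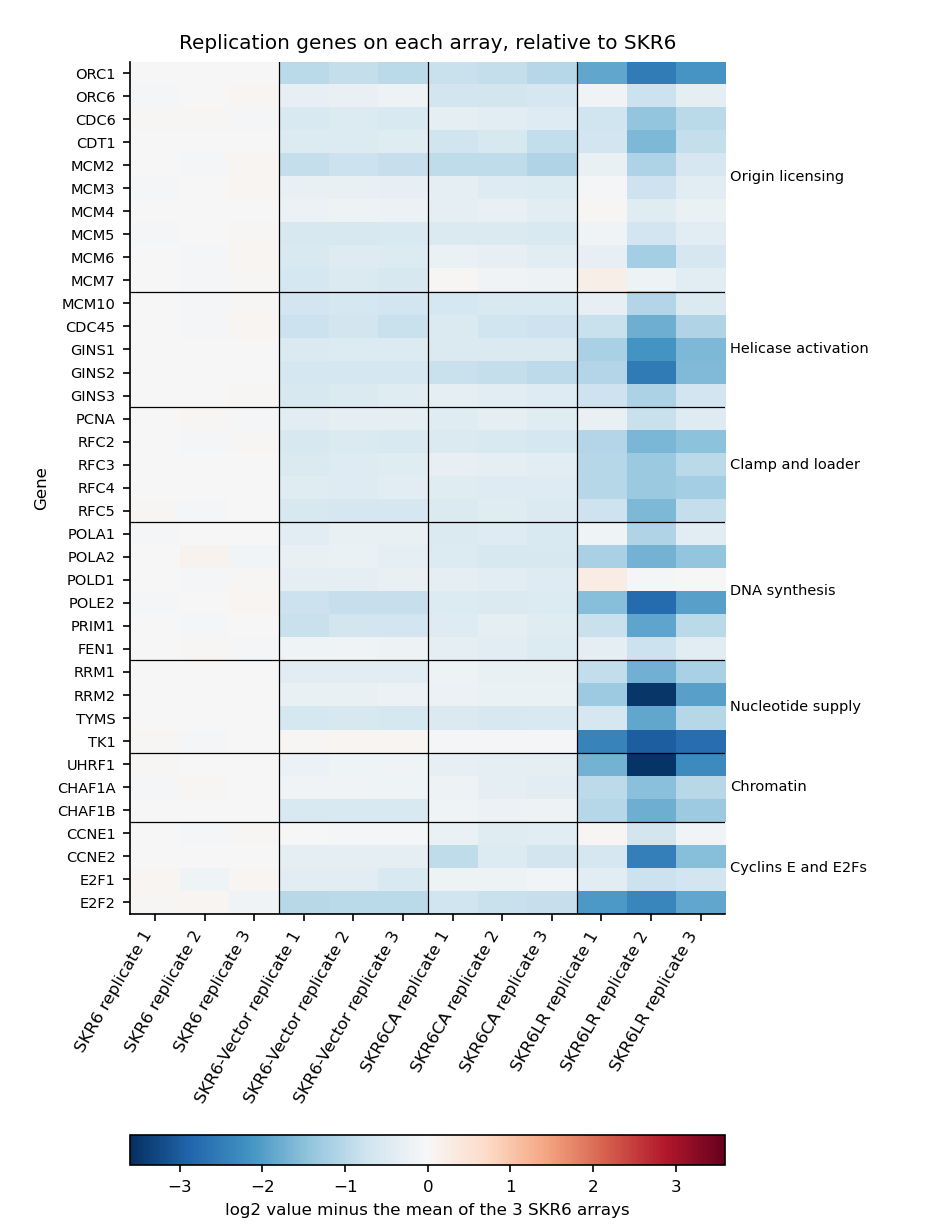
Log2 value of each of the 37 replication genes on each of the 12 arrays, minus the mean of the 3 SKR6 arrays; rows are genes grouped by role, columns are arrays, and blue marks values below SKR6. The SKR6-Vector and SKR6CA columns are evenly pale blue, and SKR6LR replicate 2 is the darkest column, with RRM2 and UHRF1 the darkest cells.

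SKR6LR replicate 2 gave the lowest of the 3 SKR6LR values for 36 of 37 members, all but MCM7, against 38.7% of all genes tested. Replicate 1 gave the highest for 34. The range over the 3 SKR6LR arrays had a median of 0.69 over the members and ran from 0.30 to 2.18, while the median range was 0.0721 in SKR6, 0.0548 in SKR6-Vector and 0.109 in SKR6CA. Because the model pools the spread over lines, SKR6LR also widens the errors of comparisons between the other lines. In most comparisons, counts are therefore also given from the compared arrays alone and without SKR6LR replicate 2.

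The start regions of the members often held E2F letters. Their letters were not used to choose the members, but many of these genes are known to be transcribed under E2F factors. A high share is therefore not a separate finding. In RefSeq (GRCh38.p14), 34 of 37 members had at least 1 start region of 300 bases, 250 before and 50 after an annotated start of transcription; CCNE2, MCM4 and MCM5 had none in the table. The windows were searched on both strands for the E2F letters TTTCCCGC, TTTCGCGC, TTTGGCGC and TTTGCCGC. At least 1 match was present in 18 of 34 members (52.9%) and in 1090 of 27305 genes of the table (3.99%). By window, the counts were 19 of 44 (43.2%) and 1164 of 35116 (3.31%). Licensing genes had a match in 6 of 8, the exceptions being ORC1 and ORC6. CHR letters (TTTGAA or TTCGAA), an element known from genes of G2 and mitosis, were present in 2 of 34 members (5.88%), in 15 of 21 genes of a G2/M list (71.4%) and in 19.5% of all genes. CCAAT letters were present in 20 of 34 members (58.8%) and in 39.7% of all genes. No full CHR or CCAAT string lies within an E2F string, and CHR matches cannot overlap E2F matches on either strand. A CCAAT match can share only its end base with an E2F match, as at position -2 in MCM7.

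The 100 bases before the start are shown for genes on which the results below turn. PCNA and MCM6 are members whose level was lower in SKR6LR than in SKR6 by a modest amount, MCM7 differed between the transduced lines, UHRF1 and E2F2 fell far in SKR6LR, and TK1 fell most. Letters run 5′ to 3′ on the gene's strand, and capitals mark E2F letters on either strand.

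PCNA (chr20:5126623-5126722, minus strand): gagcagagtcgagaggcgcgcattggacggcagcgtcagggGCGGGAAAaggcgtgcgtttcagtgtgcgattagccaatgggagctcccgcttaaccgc
MCM6 (chr2:135876444-135876543, minus strand): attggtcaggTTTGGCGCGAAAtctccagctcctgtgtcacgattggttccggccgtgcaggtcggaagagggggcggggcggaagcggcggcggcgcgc
MCM7 (chr7:100101398-100101497, minus strand): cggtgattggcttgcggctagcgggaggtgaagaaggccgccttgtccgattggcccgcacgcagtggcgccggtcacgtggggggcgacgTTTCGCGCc
UHRF1 (chr19:4909401-4909500, plus strand): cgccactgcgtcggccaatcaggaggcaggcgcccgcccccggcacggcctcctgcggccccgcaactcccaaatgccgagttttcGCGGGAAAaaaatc
E2F1 (chr20:33686386-33686485, minus strand): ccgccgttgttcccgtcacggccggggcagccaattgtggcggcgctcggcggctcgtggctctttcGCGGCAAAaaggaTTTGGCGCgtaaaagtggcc
E2F2 (chr1:23531234-23531333, minus strand): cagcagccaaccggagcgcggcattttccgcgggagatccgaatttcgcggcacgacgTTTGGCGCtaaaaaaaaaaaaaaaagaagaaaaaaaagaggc
TK1 (chr17:78187053-78187152, minus strand): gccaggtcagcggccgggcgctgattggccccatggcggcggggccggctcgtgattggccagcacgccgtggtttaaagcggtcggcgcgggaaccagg

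The capitals in MCM6 are 2 overlapping matches, 1 on each strand, and its window holds 4 matches in all. E2F1 holds 2 separate matches. The TK1 stretch, from the second of its 2 windows, holds none of the 4 strings. Among the members with the largest falls in SKR6LR, UHRF1, E2F2 and POLE2 had a match, and TK1, RRM2 and ORC1 had none in these windows. Among members with differences of -0.70 to 0.07, MCM2, MCM3, MCM6, MCM7, PCNA, POLA1 and E2F1 had a match. POLD1, CCNE1, ORC6, FEN1 and MCM10 had none, and MCM4 and MCM5 had no window. A match is a string of letters in a window and was not tested as a binding site.

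**Figure D2:**
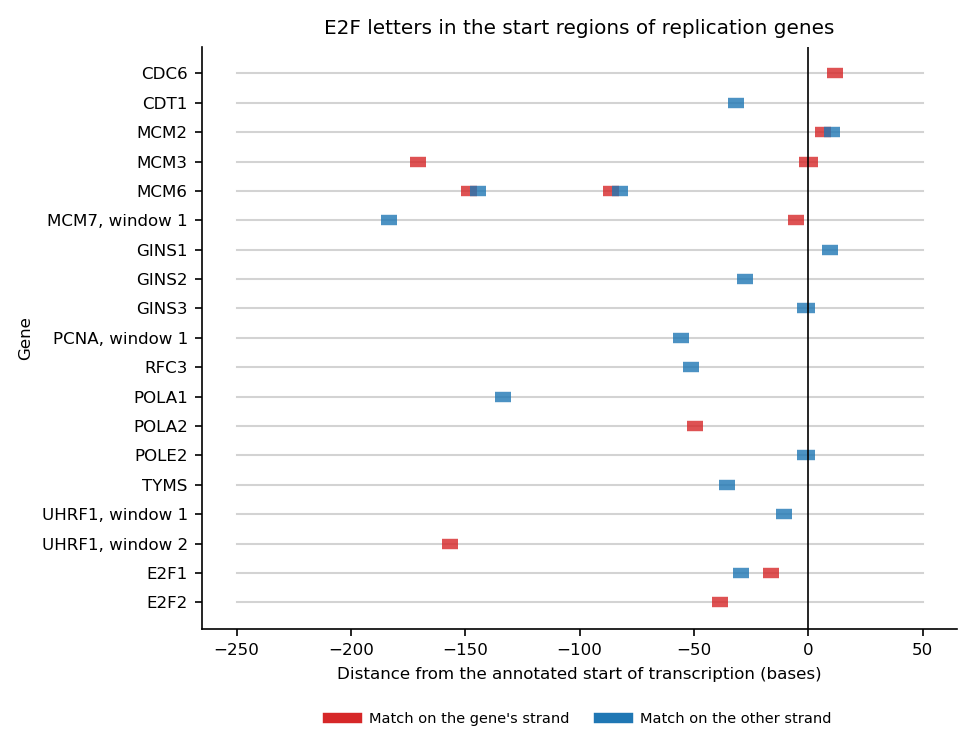
Position of E2F letters in the start regions of the replication genes that hold any, in bases from the annotated start of transcription; grey lines are the windows, from 250 before to 50 after the start, red boxes are matches on the gene's strand and blue boxes on the other strand. Most boxes lie near the start, MCM6 has 2 overlapping pairs, and UHRF1 has a match in 2 of its windows.

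The first comparison was of the lapatinib-selected line with its parent. In SKR6LR, 33 of 37 members were lower than in SKR6 and none was higher, with a median log2 difference of -1.11. Over all genes tested, 31.0% were called lower and 21.4% higher, with a median of -0.0579. The 3 arrays of each line did not overlap for the same number of members, 33 lower, against 34.9% of all genes lower without overlap. Without SKR6LR replicate 2 the count lower was 33, with a median of -0.85, against 30.5% of all genes. On the compared arrays alone 30 were lower, against 27.6%, and MCM3, POLA1 and ORC6 were no longer called (limma adjusted p = 0.0709 to 0.0726).

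Origin licensing genes gave the smallest median difference, -0.53, with 8 of 10 lower. ORC1, the largest subunit of the origin recognition complex, had values of 8.36, 8.35 and 8.38 in SKR6 and 6.49, 5.84 and 6.25 in SKR6LR. It fell by 2.17 on the log2 scale (SE 0.127, limma adjusted p = 1.29e-08), which is 4.49-fold. CDT1, the loading factor that geminin restrains, had values of 9.54, 9.52 and 9.51 in SKR6 and 8.83, 7.91 and 8.67 in SKR6LR, a difference of -1.05 (SE 0.179, limma adjusted p = 0.000246). No SKR6LR value of either gene reached the SKR6 range. The CDT1 probe set is of the _x_at class, whose probes can bind other transcripts. A weaker CDT1 probe set fell less, from 7.44, 7.25 and 7.44 in SKR6 to 7.07, 6.65 and 6.94 in SKR6LR.

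On the chosen probe sets, the helicase subunits had smaller differences than these loading factors. MCM2 to MCM7, the 6 subunits of the MCM hexamer, differed from SKR6 by -0.13 to -0.70, with a median of -0.40, and 4 of 6 were lower. MCM2 stood at 10.49, 10.47 and 10.58 in SKR6 and at 10.25, 9.39 and 9.92 in SKR6LR (difference -0.66, SE 0.158, limma adjusted p = 0.00338). MCM4 (-0.21, SE 0.0925, adjusted p = 0.0792) and MCM7 (-0.13, SE 0.125, adjusted p = 0.427) did not pass the limma test. Other MCM4 probe sets fell without overlap. The next strongest had 10.96, 10.97 and 11.04 in SKR6 and 10.74, 10.27 and 10.45 in SKR6LR. Another had 10.23, 10.13 and 10.20 against 9.83, 9.25 and 9.56, while the weaker ones overlapped. On SKR6LR replicate 1 the median MCM2 to MCM7 subunit lay at -0.10 relative to SKR6, and on replicate 2 at -0.71. ORC6 also had a small difference (-0.41, SE 0.127, limma adjusted p = 0.0162), without a call on the compared arrays alone (limma adjusted p = 0.0726).

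All 5 helicase activation genes were lower, with a median of -1.21. GINS2, a subunit of the ring that joins the helicase to CDC45, had values of 10.23, 10.24 and 10.27 in SKR6 and 9.18, 7.70 and 8.66 in SKR6LR (difference -1.73, SE 0.256, limma adjusted p = 7.61e-05). That value is of a probe set of the _s_at class, which can bind related transcripts; a weaker GINS2 probe set gave 0.03 (adjusted p = 0.81). GINS1, in the same ring, had values of 11.87, 11.88 and 11.87 against 10.72, 9.71 and 10.27. It fell by 1.64 (SE 0.175, limma adjusted p = 3.95e-06) with no overlap between the lines.

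All 5 genes of the clamp and its loader were lower as well, with a median of -1.11. PCNA, the clamp that holds polymerases on DNA, gave 13.37, 13.41 and 13.34 in SKR6 and 13.11, 12.57 and 12.92 in SKR6LR. Its difference, -0.51 (SE 0.104, limma adjusted p = 0.00104), was the smallest of the 5. RFC2 to RFC5, subunits of the loader, differed by -1.08 to -1.39, led by RFC2 (-1.39, SE 0.114, limma adjusted p = 3.41e-07) and RFC4 (-1.20, SE 0.0705, limma adjusted p = 1.39e-08). RFC2 stood at 11.53, 11.47 and 11.58 in SKR6 and at 10.47, 9.89 and 10.05 in SKR6LR, and RFC4 at 11.87, 11.91 and 11.91 and at 10.87, 10.57 and 10.66.

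The polymerase and synthesis genes were spread widely, from -2.08 to 0.07, with 5 of 6 lower. POLE2, an accessory subunit of the leading-strand polymerase epsilon, had values of 9.87, 9.90 and 9.98 in SKR6 and 8.37, 7.16 and 7.97 in SKR6LR. It fell by 2.08 (SE 0.212, limma adjusted p = 2.58e-06). POLA2, a subunit of the priming polymerase alpha, stood at 9.05, 9.19 and 8.98 against 7.91, 7.38 and 7.66 and fell by 1.42 (SE 0.11, limma adjusted p = 1.91e-07). POLD1, the catalytic subunit of polymerase delta, was alone among the members in lying above SKR6 on average, at 9.18, 8.87 and 8.93 against 8.94, 8.86 and 8.97. Its difference of 0.07 (SE 0.0818, adjusted p = 0.531) did not pass the limma test, and the arrays overlapped.

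Nucleotide supply genes had the largest median difference of the 7 role groups, -1.76, with 4 of 4 lower. TK1, the thymidine kinase of the salvage pathway, had values of 11.94, 11.87 and 11.89 in SKR6 and 9.49, 8.94 and 9.17 in SKR6LR. It fell by 2.71 (SE 0.105, limma adjusted p = 2.43e-10), or 6.52-fold, and its second probe set gave -2.92. RRM2, the small subunit of ribonucleotide reductase, stood at 13.38, 13.36 and 13.38 in SKR6 and at 12.06, 9.88 and 11.42 in SKR6LR, a difference of -2.25 (SE 0.377, limma adjusted p = 0.000214). The 3 TK1 values in SKR6LR lie close together, whereas the RRM2 values span 2.18; without SKR6LR replicate 2 the RRM2 difference was -1.64 and that of TK1 -2.58.

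The 3 chromatin genes were all lower. UHRF1, which couples DNA methylation to replication, had values of 11.16, 11.12 and 11.11 in SKR6 and 9.43, 7.59 and 8.83 in SKR6LR. It fell by 2.51 (SE 0.317, limma adjusted p = 1.84e-05), and by 2.00 without SKR6LR replicate 2. CHAF1B, a subunit of the histone chaperone CAF-1, stood at 8.98, 9.02 and 8.99 against 7.97, 7.25 and 7.68 and fell by 1.36 (SE 0.13, limma adjusted p = 1.45e-06).

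Among the regulators, paired family members differed in size. E2F2, an activator E2F, had values of 9.63, 9.65 and 9.45 in SKR6 and 7.50, 7.23 and 7.72 in SKR6LR, and fell by 2.09 (SE 0.104, limma adjusted p = 2.65e-09). Its other probe sets, both with lower signal, gave -0.79 and -0.38. E2F1 stood at 8.80, 8.56 and 8.79 against 8.30, 7.93 and 8.02 and fell by 0.63 (SE 0.0995, limma adjusted p = 0.000127). The cyclins E, partners of CDK2, also differed from each other: CCNE2 stood at 9.01, 8.99 and 9.01 against 8.41, 6.55 and 7.48 (difference -1.52, SE 0.321, limma adjusted p = 0.00132). CCNE1, at 10.01, 9.97 and 10.05 against 10.04, 9.34 and 9.92, did not pass the limma test (-0.24, SE 0.138, adjusted p = 0.164), and 1 SKR6LR array lay within the SKR6 range. These pairs were not tested against each other.

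**Figure D3:**
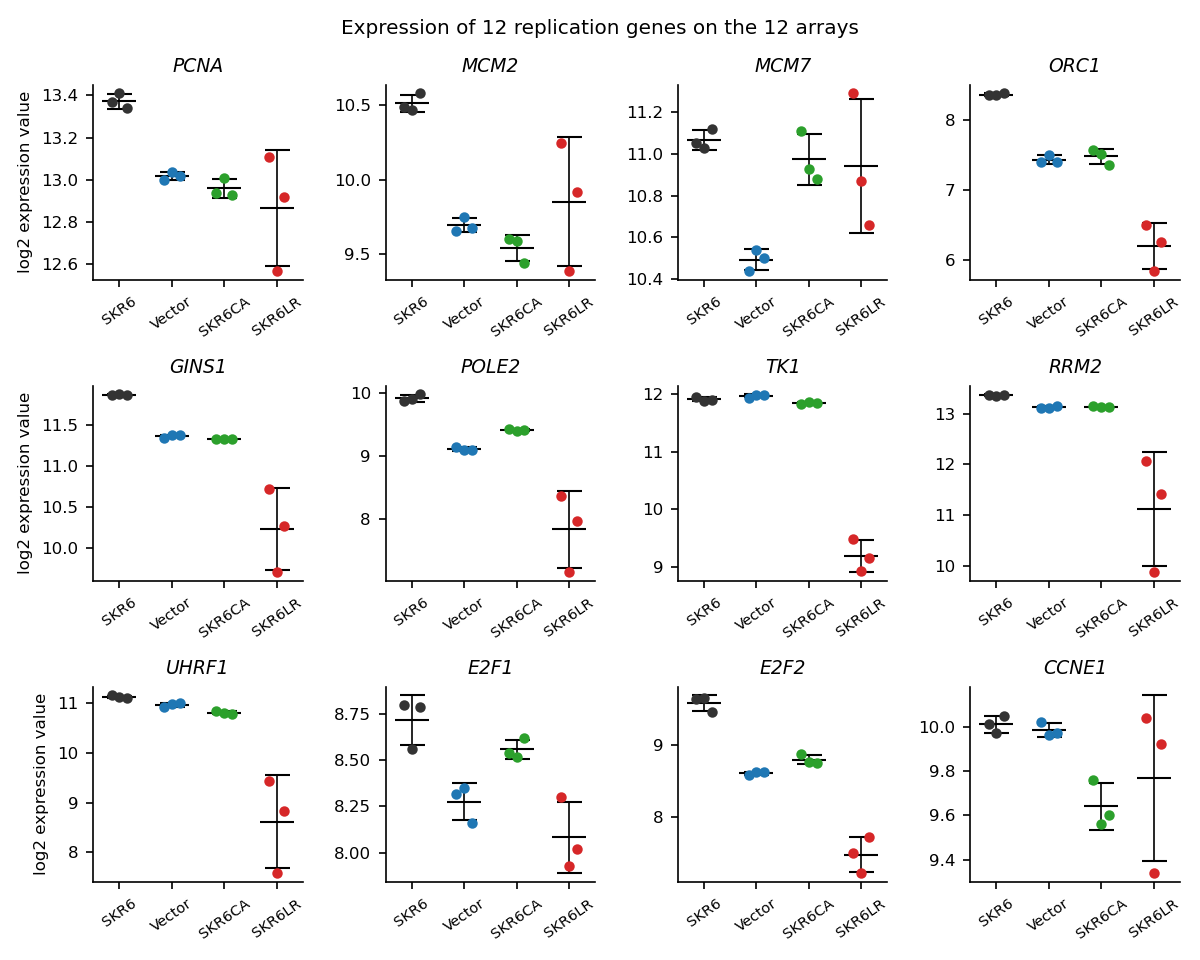
Log2 expression value of 12 replication genes on each array, with each of the 4 lines on the horizontal axis; points are arrays, long bars are line means and short bars mark 1 SD (n = 3). Vertical axes do not start at 0 and differ between genes. TK1 stands near 11.9 in 3 lines and between 8.94 and 9.49 in SKR6LR, while MCM7 and CCNE1 in SKR6LR overlap SKR6.

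Other genes of the same processes, from lists of named genes, are given for scale. Over all genes tested, 31.0% were called lower and 21.4% higher in this comparison. Of 32 other replication genes measured, 21 were lower and 3 higher in SKR6LR; CDC7, the kinase that fires origins with DBF4, had a difference of -2.17 (SE 0.289, limma adjusted p = 2.98e-05). RNASEH2A, a subunit of a nuclease for RNA in DNA, differed by -1.68 (SE 0.0957, limma adjusted p = 9.91e-09). MCM9 (0.66) and ORC3 (0.41) were higher. Of 27 genes of G2 and mitosis, 26 were lower and none higher, with a median of -1.06 beside -1.11 for the replication genes; FOXM1, a mitotic transcription factor, differed by -1.89 (SE 0.155, limma adjusted p = 3.3e-07). On the SKR6LR arrays the median G2/M gene stood at -0.71, -1.36 and -1.06 relative to SKR6, in the same order of arrays as the replication genes. Of 11 genes of S-phase repair, 10 were lower, among them FANCI (-1.59), a Fanconi anaemia protein, and 1, XRCC2, was higher (0.24).

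The E2F and RB network upstream was mixed, with 10 of 19 genes lower and 6 higher, against 31.0% and 21.4% of all genes. E2F8, a repressor E2F, had the largest difference, -4.06 (SE 0.433, limma adjusted p = 3.99e-06), and RBL1, the RB relative p107, differed by -1.86. TFDP2, an E2F dimer partner, and MYC were higher by 1.77 and 1.73. Of 7 CDK inhibitors measured, 4 were higher and 3 lower. CDKN2B, the CDK4/6 inhibitor p15, rose by 4.23 (SE 0.118, limma adjusted p = 1.09e-11) and CDKN1C (p57) by 3.18. CDKN1B, the CDK2 inhibitor p27, fell by 2.06 and CDKN2D by 1.56.

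The second comparison was of the empty-vector line with its untransduced parent. Effects of transduction, of selection and of any other difference between these lines cannot be told apart. In SKR6-Vector, 20 of 37 members were lower than in SKR6 and none was higher, with a median of -0.48, against 13.4% of all genes lower and 12.2% higher and an overall median of -0.0153. The 3 arrays of each line did not overlap for 35 members, all lower, against 25.9% of all genes. On the compared arrays alone 35 were called lower, against 19.7% of all genes, and without SKR6LR replicate 2 the count was 30, against 16.4%. This comparison and the one above share the SKR6 arrays.

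All 5 clamp genes were lower in SKR6-Vector, PCNA among them, with values of 13.00, 13.04 and 13.02 (-0.36, SE 0.104, limma adjusted p = 0.024). Licensing genes were lower in 6 of 10. MCM2 stood at 9.66, 9.75 and 9.68, well below the 3 SKR6 arrays (-0.82, SE 0.158, limma adjusted p = 0.0021). ORC1, at 7.40, 7.50 and 7.40, differed by -0.93 (SE 0.127, limma adjusted p = 0.000157). E2F2 had the largest difference of the members, with 8.58, 8.62 and 8.62 (-0.97, SE 0.104, limma adjusted p = 2.3e-05). E2F1, at 8.32, 8.35 and 8.16, differed by -0.44 (SE 0.0995, limma adjusted p = 0.00567).

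Nucleotide supply genes led the falls in SKR6LR. In SKR6-Vector 0 of 4 were called by limma on all 12 arrays, with 2 of 4 at an unadjusted p under 0.05. On the compared arrays alone RRM1 (-0.39), RRM2 (-0.25) and TYMS (-0.62) were called lower, with limma adjusted p-values of 0.000179, 0.00131 and 2.67e-05. TK1 had values of 11.93, 11.98 and 11.97, a difference of 0.06 (SE 0.105, adjusted p = 0.756). RRM2, at 13.12, 13.12 and 13.15, lay below all SKR6 arrays. It did not pass the limma test on all 12 arrays (difference -0.25, SE 0.377, adjusted p = 0.718). CCNE1, at 10.02, 9.96 and 9.97, differed by -0.03 (SE 0.138, adjusted p = 0.926). UHRF1 was at 10.93, 10.98 and 11.01 (-0.16, SE 0.317, adjusted p = 0.79). The SEs of RRM2 and UHRF1 carry the wide spread of the SKR6LR arrays.

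Other replication, G2/M and repair genes were mostly called lower or not called. Over all genes tested, 13.4% were called lower and 12.2% higher. In SKR6-Vector, 17 of 32 other replication genes were lower and 1 higher (ORC2, 0.34), led by TIPIN, a replication fork protein (-1.10, SE 0.137, limma adjusted p = 7.96e-05), and CLSPN (-0.81). Of the 27 G2/M genes, 17 were lower and none higher, led by BUB1 (-0.75). S-phase repair genes were lower in 5 of 11, with RAD54L (-0.62) and BRCA1 (-0.59) first. In the E2F and RB network 3 of 19 were higher and 2 lower, near the shares over all genes. CDK6, the G1 kinase, was higher by 1.27 (SE 0.122, limma adjusted p = 9.29e-06). Of 7 CDK inhibitors measured, 3 were higher and 2 lower. CDKN2B was higher by 4.47 (SE 0.118, limma adjusted p = 1.24e-10) and CDKN2A by 1.22. The lower ones were CDKN2D (-0.64) and CDKN3 (-0.53).

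SKR6CA was compared with SKR6 as a second reference. Here 23 of 37 members were lower and none higher, with a median of -0.44, against 14.4% of all genes lower and 9.97% higher. The arrays did not overlap for 35 members, all lower, against 26.2% of all genes. On the compared arrays alone 34 were lower, against 19.3%, and without SKR6LR replicate 2 the count was 31, against 17.9%; without SKR6 replicate 3 or SKR6CA replicate 3 it was 15. MCM2 had the largest difference, -0.97 (SE 0.158, limma adjusted p = 0.000717), with values of 9.60, 9.59 and 9.44. PCNA, at 12.94, 13.01 and 12.93, differed by -0.41 (SE 0.104, limma adjusted p = 0.0112). All 5 clamp genes and all 5 activation genes were lower. Another RFC5 probe set, with a mean of 8.86 beside 9.09, went the other way (8.99, 9.19 and 9.08 in SKR6CA, 8.83, 8.88 and 8.89 in SKR6). The weakest RFC5 probe set lay lower on every SKR6CA array. On all 12 arrays 0 of 4 nucleotide genes were called by limma, with 1 of 4 at an unadjusted p under 0.05. On the compared arrays alone RRM1 (-0.24), RRM2 (-0.23) and TYMS (-0.55) were called lower, with limma adjusted p-values of 0.00664, 0.00442 and 7.23e-05. TK1 stood at 11.82, 11.85 and 11.83 (-0.07, SE 0.105, adjusted p = 0.725).

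**Figure D4:**
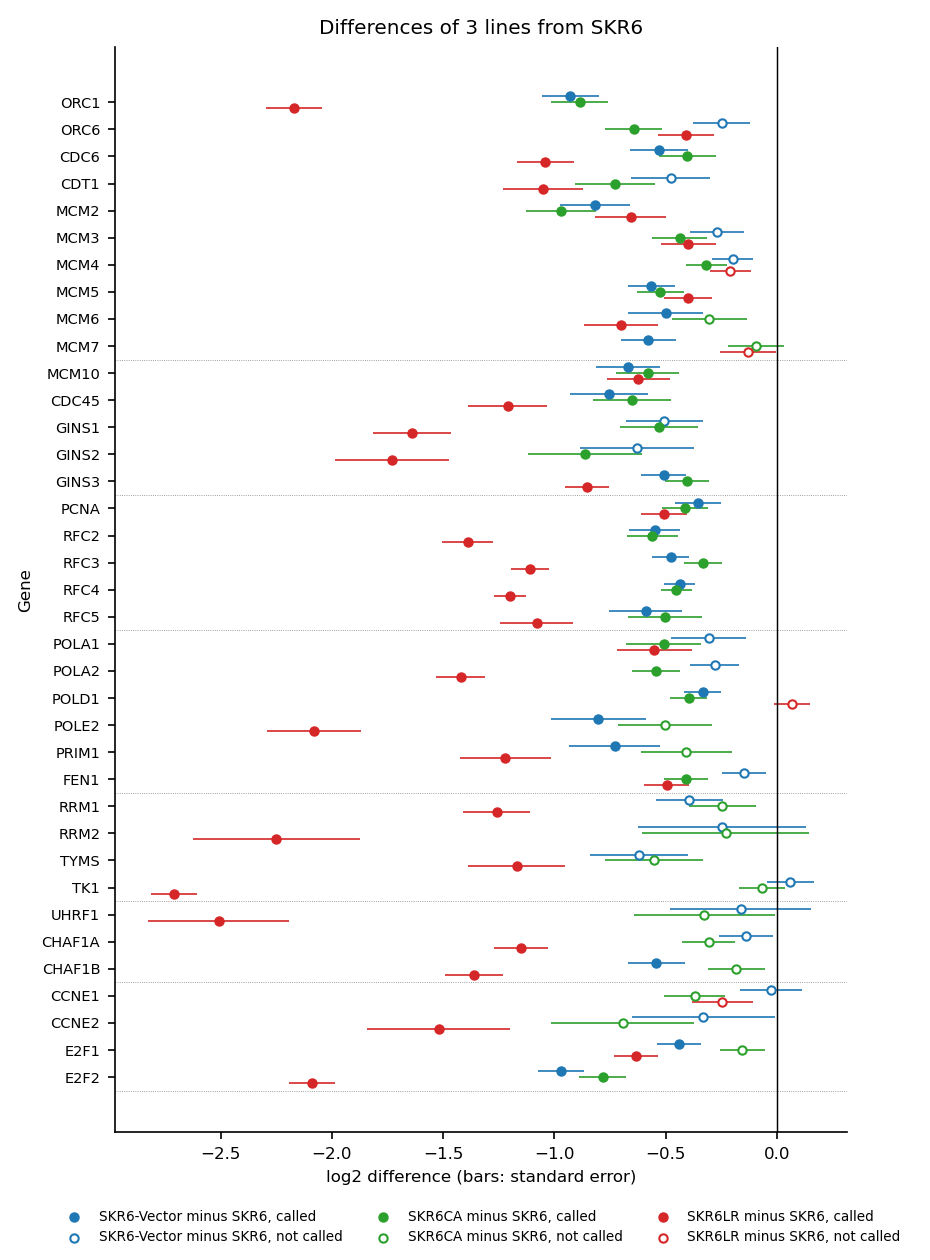
Log2 difference of each replication gene from SKR6 in SKR6-Vector (blue), SKR6CA (green) and SKR6LR (red), with the standard error of the limma model as bars; filled points have an adjusted p under 0.05, and dotted lines separate the role groups in the order used in the text. The 3 comparisons share the SKR6 arrays. Red points spread from -2.71 (TK1) to 0.07 (POLD1), while blue and green points lie between -0.97 and 0.06.

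The third comparison was of active p65 with the empty vector, both transduced and selected; an effect of p65 and any other difference between the 2 lines cannot be told apart. Between SKR6CA and SKR6-Vector, 1 of 37 members was higher and 1 lower, with a median of -0.01, against 11.7% of all genes higher and 14.9% lower. MCM7 was the higher one, at 11.11, 10.93 and 10.88 in SKR6CA against 10.44, 10.54 and 10.50 in SKR6-Vector. It rose by 0.48 (SE 0.125, limma adjusted p = 0.0118), its second probe set gave 0.39 (adjusted p = 0.00227 among all probe sets), and the lines did not overlap. The SKR6 arrays, at 11.05, 11.03 and 11.12, lay at or near the SKR6CA range. Without SKR6CA replicate 1 the MCM7 difference was 0.41 and its adjusted p was 0.0562.

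ORC6, the smallest subunit of the origin recognition complex, was the lower one. Its values were 10.16, 10.15 and 10.20 in SKR6CA and 10.52, 10.54 and 10.63 in SKR6-Vector (-0.40, SE 0.127, limma adjusted p = 0.036). The call was lost without SKR6 replicate 2, without any 1 of the 6 compared arrays and under median centring, with limma adjusted p-values of 0.0506 to 0.115 and differences of -0.34 to -0.42. Its only probe set is of the _x_at class, whose probes can bind other transcripts.

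Beyond these, no overlap between the 2 transduced lines was seen for 12 members that were higher and 15 that were lower in SKR6CA, against 21.3% and 24.2% of all genes. On the compared arrays alone 7 members were called higher and 9 lower, against 15.1% and 18.4% of all genes. The higher ones were MCM7, MCM6, CHAF1B, E2F1, E2F2, POLE2 and PRIM1, and the lower ones were ORC6, CCNE1, CCNE2, FEN1, GINS2, MCM3, POLA1, POLA2 and UHRF1. Without SKR6LR replicate 2 the counts were 6 and 6, against 14.1% and 17.5%, and without SKR6LR replicate 1 they were 3 and 4. Both counts have members in either direction, with differences in the 12-array model from -0.40 to 0.48.

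E2F1, at 8.54, 8.52 and 8.62 in SKR6CA, lay above SKR6-Vector by 0.29 (SE 0.0995, limma adjusted p = 0.052). E2F2, at 8.87, 8.77 and 8.75, lay above it by 0.19 (SE 0.104, limma adjusted p = 0.242). CCNE1, at 9.76, 9.56 and 9.60, lay below it by a difference of -0.34 (SE 0.138, limma adjusted p = 0.0926). PCNA differed by -0.06 (SE 0.104) and MCM2 by -0.16 (SE 0.158), neither past the limma test (adjusted p = 0.763 and 0.562).

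Among the related lists, 5 of 32 other replication genes were higher in SKR6CA than in SKR6-Vector and 3 lower. Over all genes tested, 11.7% were called higher and 14.9% lower. The counts of other replication, G2/M and repair genes lie near or below these shares. TIPIN (0.58) and DBF4 (0.42) came first among the higher and ORC2 (-0.68) and TIMELESS (-0.43) among the lower. Of the G2/M genes 2 were higher, PLK1 (0.54, SE 0.104, limma adjusted p = 0.00194) and BUB1 (0.32), and none lower. BRIP1, a repair helicase, was the 1 of 11 repair genes called, and was lower by a difference of -0.88. CDKN2B and CDKN2A were lower by differences of -1.62 and -0.59, and CDK6 by -0.83.

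**Figure D5:**
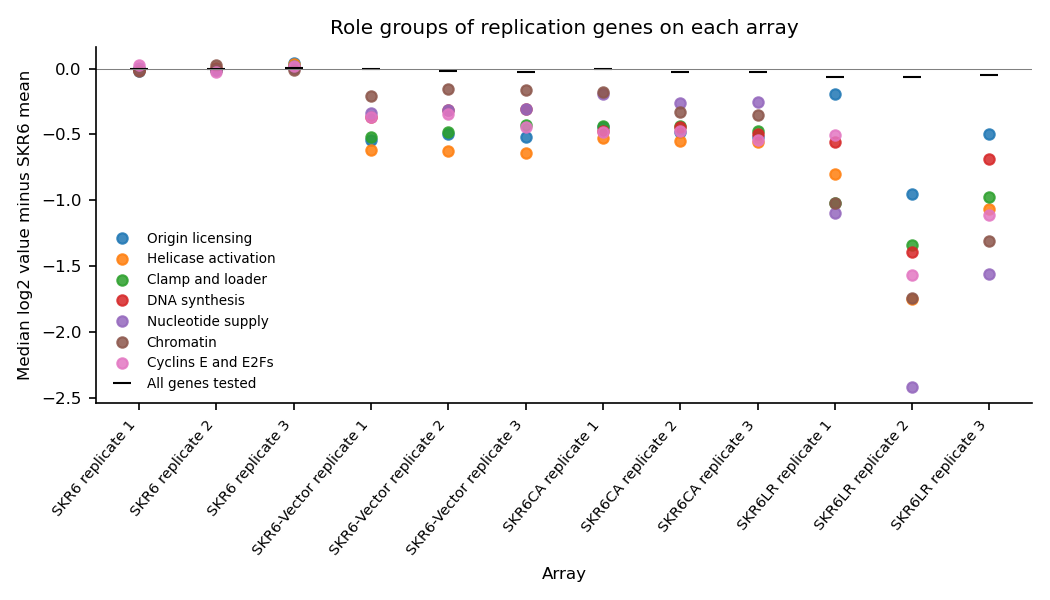
Median log2 value of each of the 7 role groups on each array, relative to the SKR6 mean of each gene; points are role groups and black bars are the median of all 19775 genes tested. On SKR6-Vector and SKR6CA arrays the groups lie between -0.64 and -0.16, and on SKR6LR replicate 2 between -2.42 (nucleotide supply) and -0.95 (origin licensing).

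The effects of active p65 and of lapatinib selection were then compared directly. This was the SKR6CA minus SKR6-Vector difference less the SKR6LR minus SKR6 difference, which share no array. The median member differed by -0.01 in the former and by -1.11 in the latter. The result therefore largely restates the SKR6LR minus SKR6 difference with its sign reversed and is not a separate finding. The result was higher for 28 of 37 members and lower for none, with a median of 1.16, against 25.6% and 19.8% of all genes. TK1 gave 2.58 (SE 0.148, limma adjusted p = 1.87e-08), POLE2 2.38 (SE 0.3, limma adjusted p = 2.6e-05) and E2F2 2.28 (SE 0.147, limma adjusted p = 5.73e-08). MCM2 (0.50, SE 0.223, adjusted p = 0.0895), ORC6 (0.01, adjusted p = 0.967), POLD1 (-0.13, adjusted p = 0.403) and CCNE1 (-0.10, adjusted p = 0.726) did not pass the limma test.

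Set against SKR6-Vector instead of SKR6, SKR6LR had 21 members lower and 2 higher, with a median of -0.51, against 28.8% of all genes lower and 21.4% higher. The higher ones were MCM7 (0.45, SE 0.125, limma adjusted p = 0.00898) and POLD1 (0.40, SE 0.0818, limma adjusted p = 0.0011). MCM2 differed by 0.16 (SE 0.158, adjusted p = 0.45), and none of the MCM2 to MCM7 subunits was lower, by limma; at an unadjusted p under 0.05 the count was also 0. TK1 (-2.77), UHRF1 (-2.35) and RRM2 (-2.01) were lower, with limma adjusted p-values of 2.01e-10, 3.52e-05 and 0.00057. On the compared arrays alone these were 2.21e-06, 0.00203 and 0.0106. There MCM7 and POLD1 stayed higher, with limma adjusted p-values of 0.043 and 0.0105. Without SKR6LR replicate 2 the median was -0.22, with 21 members lower and 5 higher, against 28.6% and 21.6% of all genes; MCM2 (0.39, limma adjusted p = 0.00362), MCM5 (0.31) and MCM10 (0.26) were then called higher as well. The other probe sets of MCM5 and MCM10 overlapped between these arrays. The stronger one of MCM10 had 8.92 and 8.45 in SKR6LR and 8.64, 8.66 and 8.67 in SKR6-Vector. This comparison joins lines that differ in both transduction and drug exposure.

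Further probe sets bear on these values. Of 35 other single-gene probe sets for 23 members, 32 had the same direction as the chosen one in SKR6LR against SKR6, and 26 were called lower. The 3 exceptions were 1 probe set each of CHAF1A, GINS2 and RFC3. The second RRM2 probe set gave -3.41 against -2.25. In SKR6CA against SKR6-Vector 27 of 35 had the same direction. For SKR6-Vector and for SKR6CA against SKR6 it was 33 of 35, with 16 and 9 called lower and 0 and 1 called higher. For SKR6LR against SKR6-Vector it was 30 of 35, with 17 called lower and 1 higher. The 5 exceptions were probe sets of GINS2, MCM5, MCM10 and RFC3.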

How the data were processed

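Total RNA was amplified with an oligo-dT primer, biotin-labelled and hybridised to 3′ arrays of 54675 probe sets, per the labels' protocols. The authors deposited log2 values; the submitters' processing notes name RMA and limma, and neither versions nor limma's role were given in the sources used here. RMA normalises quantiles across arrays and compresses differences near background. Array medians were 5.74 to 5.77. Scanner files were left out.

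Gene names came from the platform annotation: 42898 probe sets were listed, 41097 had 1 gene, and 41043 matched RefSeq by gene ID. The 19775 genes were fitted in limma 3.58.1 (R 4.3.3) with a mean per line (3 arrays each) and Benjamini-Hochberg adjustment, and no filter on low values. The script was tested on simulated data. Genes named with full values are PCNA, MCM2, CCNE1 and E2F1, the 2 largest calls per role group in SKR6LR against SKR6 and in SKR6CA against SKR6-Vector, and members against their group's direction; related lists give up to 2 calls per direction. ERBB2, COL3A1, CDH1 and other genes outside that rule were picked with their values in view. The members and lists were chosen with earlier results of these data known. Some genes of the related lists were not analysed here or are not reported here. Replicate numbers did not pair arrays (correlation of same-numbered deviations -0.034 to 0.095). The number of arrays and the spread among the SKR6LR arrays limit the precision. Alternatives were a replicate block, leaving out arrays, other scalings and weights, other probe sets, a filter and a stricter threshold.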

Additional observations from a re-analysis of the deposited data

How the results depend on the processing

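With 3 arrays a line, small differences between the transduced lines are near the limit of what can be called, and low signals carry no detection call. Relative to 33 members lower in SKR6LR than in SKR6, and none higher, cyclic loess gave 1 higher, and SKR6-Vector as the control gave 21 lower and 2 higher. The 20 members lower in SKR6-Vector became 35 on the compared arrays alone, and 16 to 30 when 1 array was left out. The 23 lower in SKR6CA than in SKR6 became 15 of 30 without probe sets of the _x_at and _s_at classes, 10 at an adjusted p under 0.01, and 15 to 31 with 1 array left out, the lowest without SKR6 replicate 3 or SKR6CA replicate 3. Against 1 member higher in SKR6CA than in SKR6-Vector, there were 2 with the replicate block, cyclic loess or the mean of probe sets, 3 with median centring, trend and robust fitting or a filter on low values, 5 with array weights, 4 with group weights, 7 on the compared arrays alone, and 0 without _x_at and _s_at probe sets or at an adjusted p under 0.01; with 1 array left out there were 0 to 6. Against 1 lower, there were 0 with median centring or at an adjusted p under 0.01, 5 with array weights, 4 with group weights, 9 on the compared arrays alone, 2 with the filter, and 0 to 6 with 1 array left out. For the difference between the effects, 1 member was lower without SKR6LR replicate 2, where none was otherwise, and leaving out any 1 array gave 0 to 1. The replicate block gave 33, 20, 23 and 28 for the other counts of members, the same as without it. Fewer samples or genes enter some of these fits; otherwise the cause was not tested.

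Over the 20 members named with full values, 2115 of 2280 values stayed on their side of the threshold, 102 came to pass it, 58 no longer passed it and 5 changed sign with a call in at least 1 of the settings compared. Differences that passed in neither setting could change sign and are among the 2115. The 5 were MCM2 (0.16) and MCM7 (0.45) in SKR6LR with SKR6-Vector as control, and GINS2 on its weaker probe set, at 0.03 in SKR6LR and 0.04 in SKR6CA against SKR6 and at -0.05 for the difference between effects. Scaling moved the share of higher among all called genes from 40.8% to 52.3% for SKR6LR against SKR6 and from 56.4% to 46.1% for the difference between effects, both under cyclic loess, and from 43.9% to 56.2% for SKR6CA against SKR6-Vector under median centring. The median member kept its sign in SKR6LR, SKR6-Vector and SKR6CA against SKR6 under these scalings.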
